A study of Homo sapiens with 3 samples.

Results

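The array labelled carboplatin was 1 of 3 dual-colour Agilent whole human genome arrays of the series, all on 1 slide, and it was picked by its title and not by its values. It set RNA of treated YB5 cells against RNA of control YB5 cells. YB5 is a single clone derived from the colon cancer line SW48 with 1 integrated copy of a green fluorescent protein reporter whose viral promoter is methylated and silent, and every group of the series carries that reporter. The treated cells were given carboplatin at 20 μM by the labels, in 4 doses from day 1 to day 4, and were harvested on day 6. The control cells were given DMSO, the solvent, and are called untreated in the titles. Treated RNA was labelled with Cy3 (green) and control RNA with Cy5 (red), and no array had the dyes exchanged, so a preference of a probe for a dye is part of each change. The other arrays, used here only beside this one, compared cells given decitabine at 25 nM, or decitabine at 25 nM with carboplatin at 20 μM, with control cells on the same schedule. The study's Results text gives a slightly higher carboplatin dose for these arrays, while its figure legend on the expression changes gives the dose of the labels. Which is right was not settled.

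The treatment of the array was taken from its label, and the label may have been exchanged with that of the other single-drug array. On the array labelled carboplatin the G antigen probe stood 6.14 higher on the log2 scale in treated cells, while on the array labelled decitabine it stood 0.11 higher. GDF15, a secreted growth factor and a well-known p53 target, stood 1.65 higher here and 4.96 higher there. The study reported that the genes lowered by carboplatin were enriched for those of cell division and the cell cycle. Of 59 mitosis and spindle genes, 2 were at least 1.5-fold lower here and 46 under the decitabine label, with 0 and 4 higher. The label was kept, no array was reassigned by its values, and an exchange was not tested.

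Carboplatin is a platinum drug that forms adducts and crosslinks between DNA bases. Cells read such damage through kinases that stabilise p53, a transcription factor that switches on genes of cell cycle arrest, repair and apoptosis. Decitabine is a cytidine analogue that is built into DNA and traps DNA methyltransferases, so that methylation is lost as cells divide. Cancer-testis genes, which are active in germ cells and kept silent elsewhere by promoter methylation, are the classical readout of such loss. Both kinds of genes are on the array and are described below.

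A change is given as log2 of treated over control signal after loess normalization, and a gene was called higher or lower at a ratio of at least 1.5, which is 0.585 on that scale. With 1 array per treatment there was no replicate and no test, which limits how precisely any value is known. In all 18611 genes were measured, each by its brightest probe. The control channel was well above the local background for 14013 of them and not for 4598. Among 264 probes spotted 10 times the pooled SD of the change was 0.0762 in log2, with a median of 0.109 among the dimmest of 4 equal classes and 0.0437 among the brightest. The pooled SD was 0.221 under the decitabine label and 0.0775 with both drugs, so the values set beside this array from the decitabine label are less precise. The control channel of this array differed from that of the both-drugs array with an SD of 0.149 over genes. By the markers, 9 of 12 colon epithelium genes were well above background in at least 1 channel, among them EPCAM, CDH1 and KRT18, but not KRT20, CDX1 or GPA33. Well above background were 3 of 6 leukocyte, 3 of 6 fibroblast and 2 of 6 endothelium markers, while PTPRC, COL3A1 and PECAM1 were not.

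At least 1.5-fold higher in treated cells were 514 genes, 2.76 % of those measured, and at least 1.5-fold lower were 278 genes, 1.49 % of those measured. The sides were not alike in size. Of the higher genes 118 reached 2-fold and 19 reached 4-fold, whereas 6 of the lower genes reached 2-fold and 0 reached 4-fold. The median change of all genes was -0.006 and the SD 0.289. Higher genes made up 64.9 % of the genes called, but 54.8 % with the scanner's processed signals, 55.9 % with its log ratio, 75 % with the mean over the probes of a gene and 32.0 % with median centring in place of loess, where the median of all genes lay at -0.156. Just inside the upper threshold were ASPSCR1, ADCK5 and ZBTB45, and just outside it SDC4, SNN and TMEM37. At the lower threshold DST, SLC67A1-AS and HIF1A were just inside, and CAVIN3, AFDN and MFSD1 just outside.

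**Figure D1:**
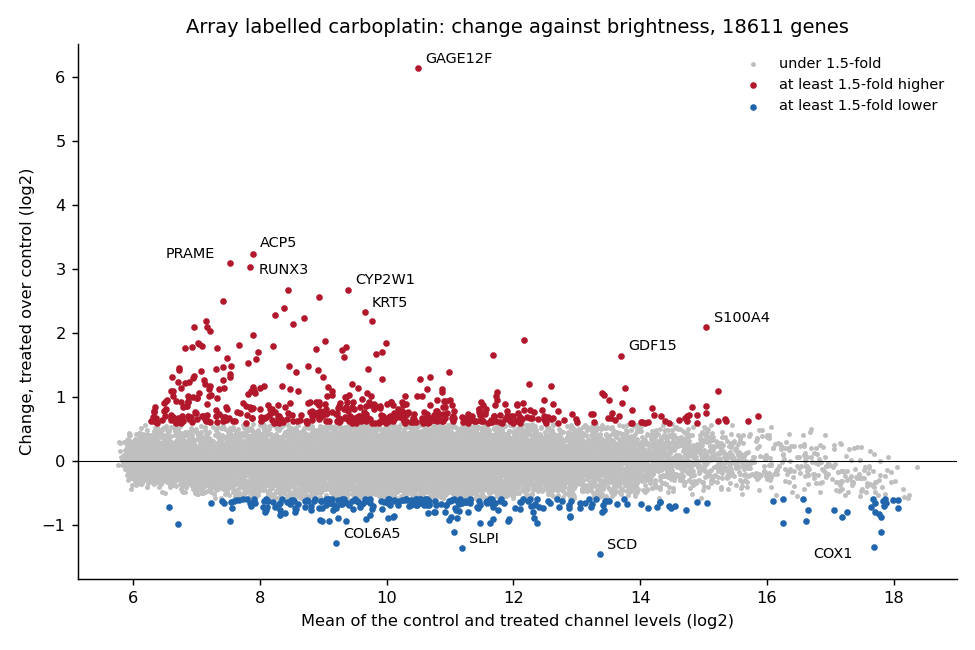
Change of each of 18611 genes on the array labelled carboplatin (y axis, log2 of treated over control) against the mean of both channel levels (x axis, log2); red points were at least 1.5-fold higher in treated cells, blue points at least 1.5-fold lower. GAGE12F stands alone at 6.14, and the largest fall, SCD, lies at -1.46.

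Where a called gene had at least 2 probes well above background, every probe had the same sign in 124 of 136 higher genes and in 96 of 141 lower genes. The change also moved with the base composition of the probe. Over 14179 genes above background in a channel, Pearson's r of the change with the G+C share of the probe was 0.335 across genes, which share 1 hybridisation and are not independent replicates, against 0.125 for the decitabine label and 0.238 for both drugs. The median change went from -0.127 among probes with at least 35 % and under 40 % G+C to 0.191 at 60 % or more. In those bins 1.53 % and 7.65 % of genes were higher, and 3.73 % and 0.125 % were lower. The median G+C of the probe was 51.7 % for higher genes, 38.3 % for lower genes and 43.3 % for all genes. With the trend on G+C removed, 392 genes were higher and 216 lower, of which 348 and 177 were among those called before. The part of base composition in single changes was not tested further, and values with the trend removed are given below where they matter.

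**Figure D2:**
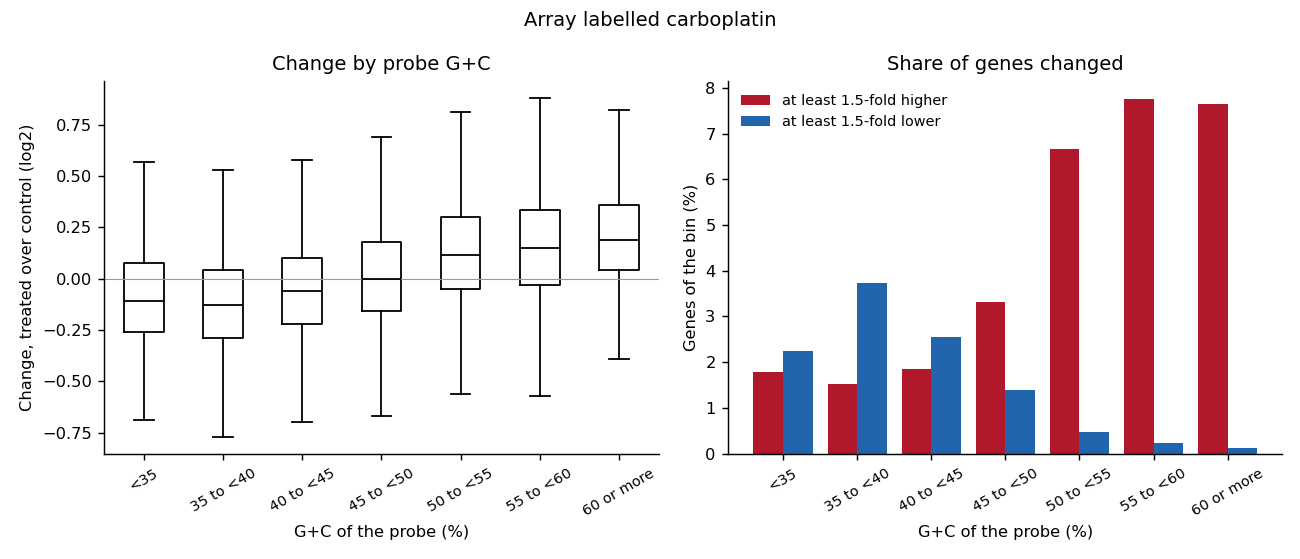
Left, change of genes above background on the array labelled carboplatin (y axis, log2) by G+C content of the probe (x axis, %), with boxes for the quartiles, a line for the median and whiskers to the farthest gene within 1.5 times the height of the box, genes beyond them not drawn; right, the share of genes at least 1.5-fold higher (red) or lower (blue) in each bin (y axis, %). The median rises from -0.127 to 0.191 and the share of higher genes from 1.53 % to 7.65 % between 35 % and the highest bin.

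Cancer-testis and germline genes included the largest change of the array, that of GAGE12F, and 3 of its 25 largest rises. Of 136 listed genes 109 were measured, of which 41 were well above background in a channel. At least 1.5-fold higher were 13 of them and 1 was lower, which is 11.9 % and 0.917 % against 2.76 % and 1.49 % of all genes. The median of the list was 0.09.

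The sequences of this group are shown because its lead gene belongs to a family of near-identical copies, and because its promoters carry the CpG sites that methylation acts on. The G antigen probe, named GAGE7 in the files and GAGE12F in the RefSeq table, lies at chrX:49218341-49218400 of GRCh37 by the files. Its 60 bases are printed with no part marked. The promoters, from RefSeq on GRCh38.p14, run from 250 bases before to 50 bases after the gene start on the gene's strand, and CpG sites are in capitals. DDIT4L, which was not in the germline list but came from below background too, and SCD, the gene with the largest fall, are set beside them.
GAGE12F probe: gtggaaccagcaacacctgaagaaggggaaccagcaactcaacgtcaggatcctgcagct
GAGE12F, chrX:49560592-49560891, plus strand: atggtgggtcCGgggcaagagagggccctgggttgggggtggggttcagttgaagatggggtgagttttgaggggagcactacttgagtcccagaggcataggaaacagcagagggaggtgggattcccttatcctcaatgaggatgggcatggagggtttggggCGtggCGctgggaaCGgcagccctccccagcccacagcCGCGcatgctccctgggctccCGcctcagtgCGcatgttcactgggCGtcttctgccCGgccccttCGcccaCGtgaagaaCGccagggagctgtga
XAGE1A, chrX:52495627-52495926, plus strand: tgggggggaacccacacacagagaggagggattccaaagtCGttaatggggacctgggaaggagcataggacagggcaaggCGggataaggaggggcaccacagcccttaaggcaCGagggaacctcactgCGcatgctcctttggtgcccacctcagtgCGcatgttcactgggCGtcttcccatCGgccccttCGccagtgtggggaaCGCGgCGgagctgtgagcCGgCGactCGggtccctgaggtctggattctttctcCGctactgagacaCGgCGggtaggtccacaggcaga
PRAME, chr22:22559216-22559515, minus strand: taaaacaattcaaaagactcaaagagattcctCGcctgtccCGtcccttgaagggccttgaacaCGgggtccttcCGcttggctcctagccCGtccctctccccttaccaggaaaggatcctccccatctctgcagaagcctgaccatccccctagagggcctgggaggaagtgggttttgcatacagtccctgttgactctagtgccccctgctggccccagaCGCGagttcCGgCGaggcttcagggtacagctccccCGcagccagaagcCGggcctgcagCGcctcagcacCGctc
DDIT4L, chr4:100190419-100190718, minus strand: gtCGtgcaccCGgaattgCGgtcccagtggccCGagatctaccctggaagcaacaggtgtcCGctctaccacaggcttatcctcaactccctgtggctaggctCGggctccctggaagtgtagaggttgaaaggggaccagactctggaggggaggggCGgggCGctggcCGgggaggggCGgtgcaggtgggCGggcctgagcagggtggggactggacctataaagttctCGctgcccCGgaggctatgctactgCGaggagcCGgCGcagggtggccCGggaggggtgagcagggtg
SCD, chr10:100346983-100347282, plus strand: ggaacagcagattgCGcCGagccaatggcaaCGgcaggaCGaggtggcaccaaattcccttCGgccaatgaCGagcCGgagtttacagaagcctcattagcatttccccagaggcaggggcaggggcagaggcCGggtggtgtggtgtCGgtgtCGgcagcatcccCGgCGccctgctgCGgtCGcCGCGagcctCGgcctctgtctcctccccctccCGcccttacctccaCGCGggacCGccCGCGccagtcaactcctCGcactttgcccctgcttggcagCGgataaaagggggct

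The windows of GAGE12F and PRAME held 13 CpG sites each, those of XAGE1A and DDIT4L 17 each and that of SCD 25. Among all 27305 promoters given, 56.0 % held 10 or more. GAGE12F and XAGE1A shared the unbroken stretch cctcagtgcgcatgttcactgggcgtcttc, 30 bases long, which on either strand was present in 11 of 27305 promoters (0.0403 %), all of them of GAGE or XAGE1 genes. Of these genes GAGE1 was measured too. It was at 5.80 in control and 6.11 in treated cells and not above background in either. The GC box GGGCGG, present in 44.6 % of all windows on either strand, was found in those of DDIT4L and SCD and not in the windows of GAGE12F, XAGE1A or PRAME, and the letters TATAAA, in 12 % of windows, were found for DDIT4L alone of these genes.

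The G antigens are small proteins of germ cells and melanoma. The GAGE12F probe read 7.42 in control and 13.56 in treated cells on the log2 scale, a ratio of 70.8. With both drugs it changed by 5.68 and under the decitabine label by 0.11, where neither channel was above background. The family holds near-identical copies, so the probe may read more than 1 of them, which was not tested. A second probe that the files name GAGE3 matched no RefSeq gene and stood 2.10 higher. It was looked up after its value was seen.

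PRAME, a tumour antigen, read 5.99 in control and 9.07 in treated cells, at least 7.78-fold higher, and its second probe stood 2.00 higher. XAGE1A read 6.13 and 7.96, at least 3.57-fold higher. Both were near 0 on the array labelled decitabine (-0.06 and 0.07) and near the present values on the both-drugs array (2.95 and 1.80). CTAG1A, which encodes the tumour antigen NY-ESO-1, went from 6.88 to 8.19, a change of 1.31. PAGE2 and PAGE5, neighbours on chromosome X, changed by 1.07 and 0.99. The SSX genes, which encode nuclear repressors of the testis, were counted as a family after the values were seen. Of 9 measured 3 were higher, beside 2.76 % of all genes, and the family median was 0.16. The 3 were SSX3 by at least 1.75-fold, SSX2 by 0.73 in log2 and SSX4B, which is not in the germline list, by at least 2.21-fold.

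Genes of meiosis and germ cell fate formed the rest of the group. SOHLH1, a germ cell transcription factor, was at least 2.03-fold higher, and MEI1, needed for meiotic recombination, at least 2.01-fold. STAG3, the meiotic cohesin subunit, changed by 0.86 and SYCP3, of the synaptonemal complex, was at least 1.55-fold higher. MAGEA9 was at least 1.51-fold higher. PIWIL4, of the piRNA pathway, was the lower gene at -0.62. Outside the list, GCNA, a germ cell nuclear protein on chromosome X, changed by 1.85, the paraneoplastic antigen PNMA5 by 1.36, and its relative PNMA3 was at least 1.90-fold higher. Removing the trend on G+C left PRAME at 3.21, XAGE1A at 1.70 and GAGE12F at 5.98.

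Other genes also appeared from below background. Of the 514 higher genes 45 were not well above background in control cells, and all 45 were above it in treated cells. They were 45 of 4598 genes below background in control cells, beside 469 of 14013 above it. Over all genes 2.76 % were higher. DDIT4L, a stress-induced inhibitor of mTOR signalling, went from 6.06 to 8.25, at least 4.39-fold. ICAM2, an adhesion ligand of leukocyte integrins, was at least 3.71-fold higher and SLC15A3, a lysosomal peptide transporter, at least 3.57-fold. AFAP1-AS1, a long noncoding RNA of epithelial cancers, was at least 3.48-fold higher, and its second probe changed by 0.94.

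Further down this list stood TMEM204 (at least 3.25-fold), DNALI1 (3.01-fold), EN1 (2.52-fold), MROH2A (2.51-fold), ERLN (2.34-fold), COL8A2 (2.34-fold), ZNF22 (2.30-fold) and APOBEC3G (2.22-fold), each value a lower bound. For ERLN and COL8A2 that bound is the plain ratio. On the array labelled decitabine these 8 genes lay between -0.14 and 0.46. The fibroblast matrix genes DCN and LUM were among the 45 and remained dim, with DCN at 6.98 and LUM at 6.66 in treated cells. COL1A2, COL3A1 and PDGFRB were below background in both channels.

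Among genes not above background in control cells, the share that was higher differed between classes of promoter CpG content. With 0 to 3 CpG sites in the window 4 of 938 were higher (0.426 %), and with 4 to 7 sites 4 of 623 (0.642 %). Higher were 4 of 357 with 8 to 12 sites (1.12 %), 15 of 713 with 13 to 25 (2.10 %) and 4 of 733 with 26 or more (0.546 %). Among genes already above background the same classes, in that order, had 3.08 %, 5.29 %, 5.62 %, 2.18 % and 3.34 %. The median was 17 sites for the 31 genes of the 45 whose promoter was in the table, and 9 for all genes below background. These are descriptions of 1 array.

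After GAGE12F, the largest rises from a control level above background were of genes of varied function. ACP5, the tartrate-resistant acid phosphatase, went from 6.28 to 9.50, a change of 3.23, with 4.45 on the both-drugs array and 0.04 on the other. RUNX3, a transcription factor often silenced by methylation in gastrointestinal tumours, went from 6.32 to 9.35, by 3.03. CYP2W1, a cytochrome P450 of fetal gut and colon tumours, went from 8.05 to 10.73. Each was read by a single probe. Under the decitabine label RUNX3 was at -0.38 and CYP2W1 at -0.25.

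The dimmest of these rises start close to the lowest control level that counted as well above background, 6.11 in log2. PLPP7 at 6.11, H1-1 at 6.17, PDIA2 at 6.20, ACP5 at 6.28 and RUNX3 at 6.32 were within 0.25 of it. S100A4, a calcium-binding protein of motile cells, was bright in both channels, with 16.09 in treated cells and a change of 2.09. INPP5D, a phosphatase of inositol phosphates, went from 11.22 to 13.12, a change of 1.90. Its second probe was not well above background, and the mean over its 2 probes was 1.09.

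The next largest rises were spread over signalling, transport and structure. IFFO1, an intermediate filament protein of the nucleus, changed by 2.39, APBA2, a neuronal adaptor, by 2.29 with a second probe at 1.27, and the noncoding LINC00479 by 2.23. GPAT2, an acyltransferase of germ cells and mitochondria, changed by 2.14, but by 1.13 as the mean over its 2 probes. PDIA2, a pancreatic disulfide isomerase, changed by 2.03. PGF, placental growth factor, changed by 1.97 here, 1.57 under the decitabine label and 3.96 with both drugs. WNT11, a ligand of noncanonical Wnt signalling, changed by 1.71 with a second probe at 0.84, and DPEP1, a renal dipeptidase that marks colon tumours, by 1.71. WNT11 and DPEP1 were -0.51 and -0.37 on the array labelled decitabine.

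**Figure D3:**
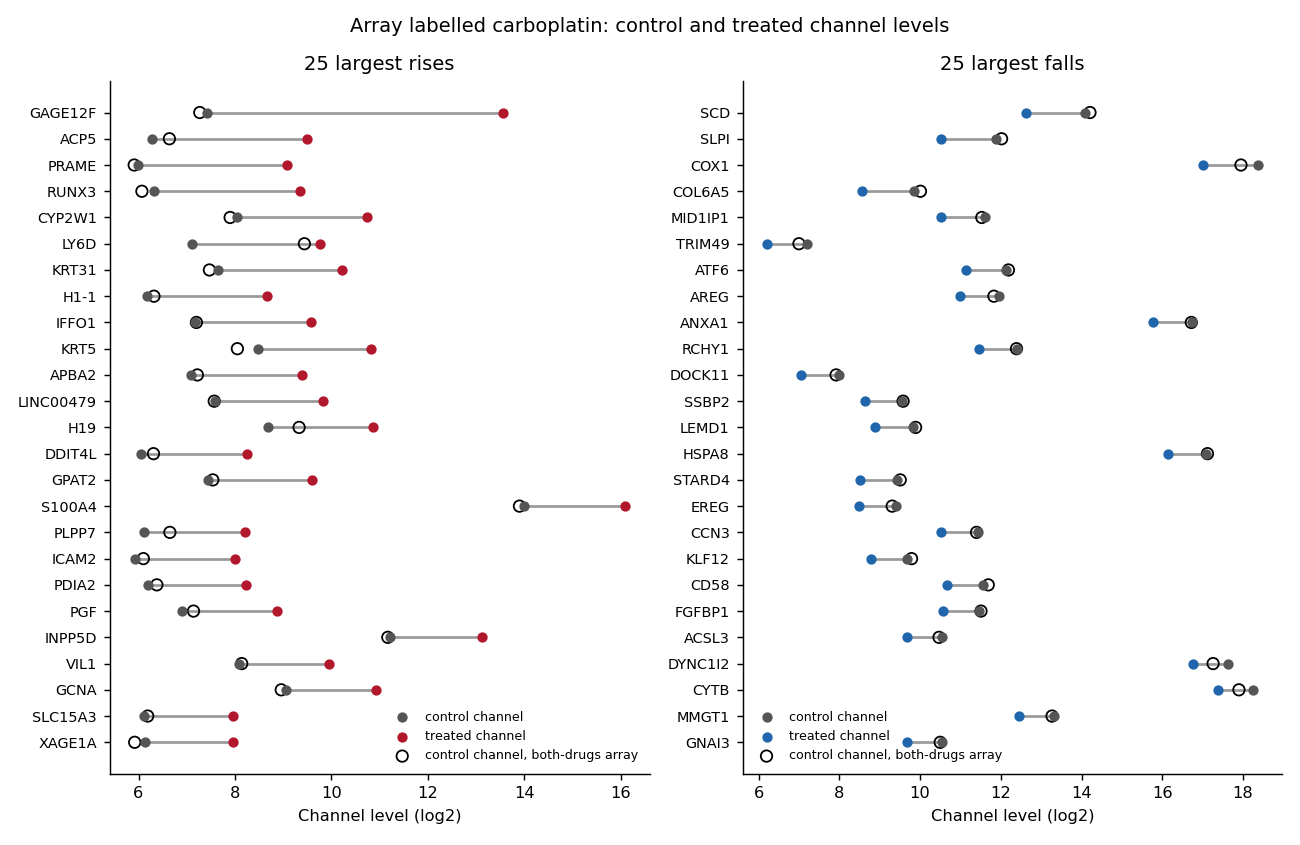
Control (grey) and treated (coloured) channel levels on the array labelled carboplatin (x axis, log2) for the 25 largest rises, left, and the 25 largest falls, right, among genes whose probes shared a sign. Open circles are the control channel of the both-drugs array. Falls of genes whose probes disagreed in sign were passed over, among them TLE1 at -1.11. GAGE12F moves from 7.42 to 13.56 and SCD from 14.09 to 12.63, and the open circle of LY6D, at 9.44, lies far from its control at 7.10.

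Genes of the epithelial cytoskeleton were among the higher genes. Of 18 keratins in the list, 4 were higher and 0 lower (22.2 % against 2.76 % higher among all genes), with a median of 0.41 that lay between 0.25 and 0.59 under the alternatives tried, lowest with the trend on G+C removed. KRT5, the keratin of basal epithelial cells, went from 8.48 to 10.82 and changed by 2.33. KRT16 changed by 0.75, KRT19 by 0.71, and KRT23 was at least 1.44-fold higher from below background. Over all 53 keratin genes measured, 6 were higher and the median was 0.06. KRT31, a hair keratin outside the list, changed by 2.57, from 7.64 to 10.21.

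VIL1, which bundles actin in the microvilli of the gut, changed by 1.87 from 8.08 to 9.96, and its other probes by 0.63 and 1.63. It was -0.88 under the decitabine label and 0.19 with both drugs. Of the 54 genes of intestinal differentiation VIL1 was the only one higher, and DPP4, a brush border peptidase, the only one lower at -0.71. The list's median was -0.03.

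Secreted and calcium-binding proteins gave further groups that were drawn up after the values were seen, so that their counts, beside 2.76 % higher among all genes, are descriptions only. The family medians were near 0 for S100 genes (0.08), galectins (0.16) and kallikreins (0.08), and 0.60 for APOBEC3 genes. Of 21 S100 genes measured 4 were higher and 0 lower: S100A4 (2.09), S100A14 (1.44), S100P (0.72) and S100A2 (0.68). Of 14 galectins 3 were higher. LGALS1, which binds galactosides at the cell surface, changed by 1.48, and LGALS7 and LGALS7B, near-identical copies whose probes may read each other, by 1.67 and 1.43. Of 15 kallikreins, serine proteases of secretions, KLK5 (1.78) and KLK8 (0.60) were higher and KLK7 (-0.77) lower. Of 7 APOBEC3 genes, cytidine deaminases that restrict viruses, 4 neighbours on chromosome 22 were higher: APOBEC3G (at least 2.22-fold), APOBEC3C (1.04), APOBEC3F (0.93) and APOBEC3B (0.60).

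Matrix, junction and protease genes are set against 2.76 % higher and 1.49 % lower among all genes. In the list of 53 integrins, laminins and collagens, 4 were higher (7.55 %) and 1 lower (1.89 %). COL9A3, a cartilage collagen, changed by 1.61, COL8A2 was at least 2.34-fold higher, and COL18A1, the source of endostatin, changed by 0.82. COL6A1 changed by 0.63, but by -0.00 with median centring. COL6A5 was the lower one at -1.28. Of 41 adhesion and junction genes ICAM2 and the gap junction gene GJA1 were higher (4.88 %). Occludin (OCLN, -0.64) and TJP1 (-0.63), both of tight junctions, were lower (4.88 %). Of 59 proteases and inhibitors 4 were higher (6.78 %), with CSTA at 1.01 and PLAT at least 1.49-fold higher, and 3 lower (5.08 %), with SLPI at -1.36.

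Several targets of p53 were higher, by modest amounts, and are set against 2.76 % higher and 1.49 % lower among all genes. Of 20 genes of arrest and feedback, 10 were higher and 0 lower, with a median of 0.56 that lay between 0.24 and 0.69 under the alternatives tried, lowest with median centring. Of 18 that promote apoptosis 4 were higher (22.2 %), with a median of 0.31 that was -0.00 with median centring. Of 26 in metabolism and signalling 6 were higher (23.1 %) and 1 lower (3.85 %), with a median of 0.33 that was -0.08 with median centring. The medians of the 3 lists were 1.93, 1.13 and 1.22 under the decitabine label and 1.78, 1.21 and 1.30 with both drugs.

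Within the arrest list PHLDA3, an inhibitor of AKT, changed by 1.20, PLK3, a stress kinase, by 1.12, SFN, which holds cells in G2, by 1.07 and CDC42BPG by 1.02, with a second probe at 0.10. The repair genes DDB2 and XPC, which recognise distorted DNA, changed by 0.83 and 0.65, and were the only 2 of 44 genes of platinum adduct and crosslink repair to be called. MDM2, which returns p53 to its basal level, changed by 0.63, with other probes between 0.09 and 0.84, against 3.34 on the array labelled decitabine. GADD45A (0.23), PLK2 (0.28), BTG2 (0.33), CCNG1 (-0.05) and PPM1D (-0.10) were not called.

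CDKN1A, the p21 inhibitor of cyclin-dependent kinases, had an uncertain value. It read 12.97 in treated cells, 0.96 above the control, and its second probe changed by 1.31. Its control level was 13.39 and 12.97 on the other arrays, and the authors' deposited value for this array was 0.16. Against the mean control channel of this and the both-drugs array the change was 0.48.

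Of the apoptosis genes AEN, a nuclease, changed by 0.83, BAX by 0.71, PMAIP1 (NOXA) by 0.61, and TNFRSF12A by 0.60, which was -0.01 with median centring. In metabolism and signalling GDF15 went from 12.87 to 14.52, FDXR, a mitochondrial electron carrier, changed by 1.10 and the heparan sulfatase SULF2 by 1.08. TNFSF9 changed by 0.77 and ACTA2 by 0.91. KITLG was lower at -0.89 by its brightest probe, while its other probes read 0.25 and 0.54.

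**Figure D4:**
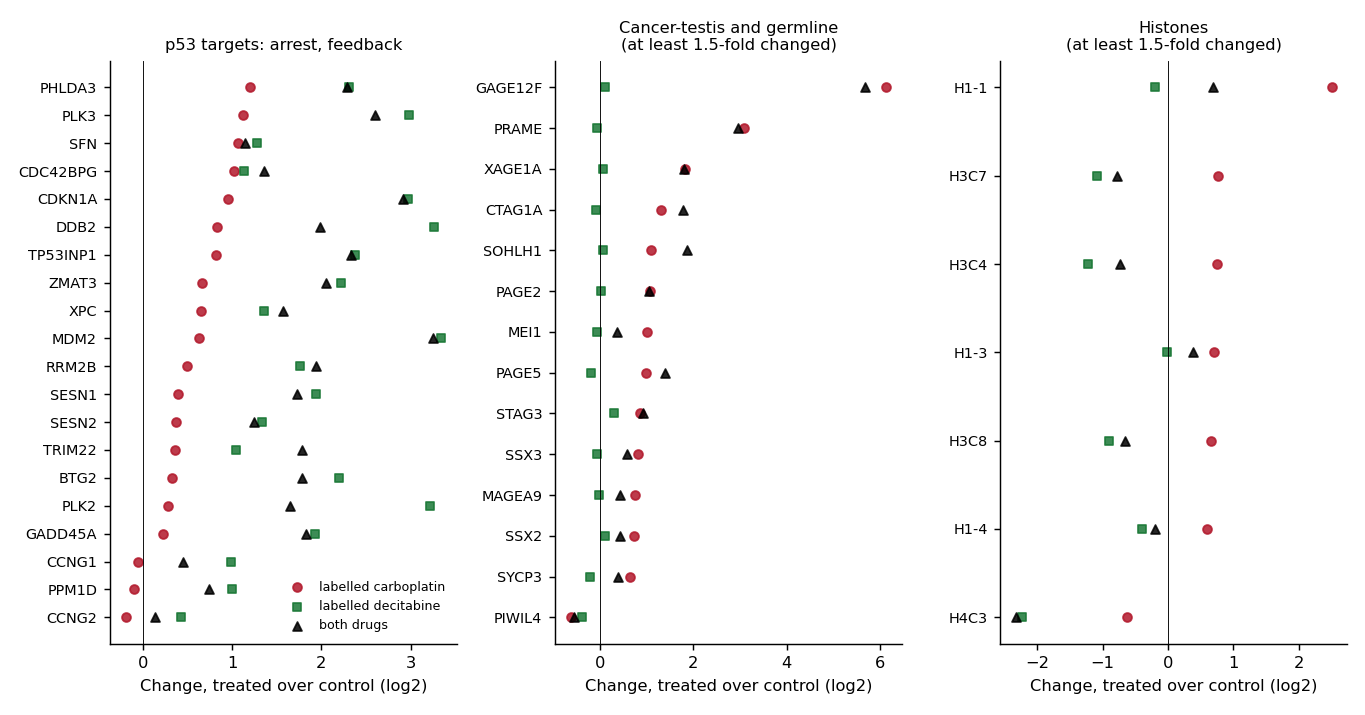
Changes (x axis, log2 of treated over control) of single genes on the arrays labelled carboplatin (red circles), labelled decitabine (green squares) and both drugs (black triangles): all 20 p53 targets of arrest and feedback, and the members of the germline and histone lists that were called on the array labelled carboplatin. MDM2 lies at 0.63, 3.34 and 3.25, GAGE12F at 6.14, 0.11 and 5.68, and H3C7 at 0.77, -1.09 and -0.78.

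Genes of the cell cycle are set against 2.76 % higher and 1.49 % lower among all genes. Of 59 mitosis and spindle genes 0 were higher and 2 lower (3.39 %), KIF20B (-0.66) and ASPM (-0.59). The median was -0.15, and -0.64 with median centring. With the trend on G+C removed 0 of the 59 were lower. The same list had medians of -0.98 and -0.99 on the arrays labelled decitabine and both drugs. CCNB1 was at -0.39, PLK1 at -0.33 and CDK1 at 0.01. Of 55 replication genes 4 were higher (7.27 %) and 0 lower, with a median of 0.11 that was -0.39 with median centring. The higher ones were FEN1, the flap nuclease, at 0.72, CDT1, the licensing factor, at 0.71, CLSPN at 0.63 and POLE at 0.59. With the trend on G+C removed 2 of the 55 remained past 1.5-fold.

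Replication-dependent histone genes, which supply the nucleosomes of newly made DNA, were mostly above 0. Of 54 measured 48 were above 0, 6 were at least 1.5-fold higher (11.1 %) and 1 lower (1.85 %), beside 2.76 % and 1.49 % of all genes. The median was 0.26, and 0.15 with the trend on G+C removed and -0.21 with median centring. With the trend on G+C removed 3 were higher and 1 lower. H1-1, a linker histone, went from 6.17 to 8.67 and changed by 2.50. H3C7, H3C4 and H3C8 changed by 0.77, 0.75 and 0.66, although the other probes of H3C7 were at 0.11 and 0.12 and that of H3C8 at 0.18, H1-3 by 0.70 and H1-4 by 0.60, and all 6 lie within a span of chromosome 6 in which 31 genes were measured. H4C3 was lower at -0.62. H3C4, H3C7 and H3C8 were at -1.22, -1.09 and -0.90 on the array labelled decitabine. The median G+C of the probes of the list was 53.3 %.

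Of 25 genes of G1 control CCND1 (0.65), encoding cyclin D1, and CDKN1C (0.74) were higher (8.0 % against 2.76 % of all genes). CDKN1B, encoding the p27 inhibitor, was the 1 lower (4.0 % against 1.49 %), at -0.79 with a second probe at -0.11. CDKN1B lay with GPR19 and APOLD1 in a run of 3 neighbours on chromosome 12, chr12:12814397-12944238 of GRCh37, that were all 3 genes measured there and were all lower, with values from -0.79 to -0.63. H19, the imprinted noncoding RNA on chromosome 11, changed by 2.19, and was 1.79 and 3.13 on the other arrays. Of 22 imprinted genes H19 and CDKN1C were the 2 called.

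The largest fall was that of a gene of lipid metabolism. SCD, the desaturase that makes oleate from stearate, read 14.09 in control and 12.63 in treated cells, a change of -1.46, and its other 3 probes lay between -1.15 and -0.63. On the other arrays SCD was at -2.66 and -2.87. MID1IP1, which activates acetyl-CoA carboxylase, changed by -1.11 and ACSL3, an acyl-CoA synthetase of the endoplasmic reticulum, by -0.87. These were the 3 lower of 28 genes of fatty acid synthesis, with 0 higher and a median of -0.11, which is 10.7 % lower against 1.49 % of all genes.

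Of 27 cholesterol genes 3 were lower (11.1 %) and 1 higher (3.70 %), with a median of -0.18 that lay between -0.58 and -0.14 under the alternatives tried. STARD4, a sterol carrier, changed by -0.93, DHCR7, which catalyses the last step of the pathway, by -0.70 and IDI1 by -0.60. IDI1 was at -0.19 in the authors' values. It was at 0.76 on the array labelled decitabine, where its control read 9.57, against 10.83 here and 10.76 on the both-drugs array. INSIG1 (-0.49) and HMGCS1 (-0.45) were lower by less than the threshold, and MVD, of the mevalonate steps, was higher at 0.74.

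Other large falls were of single genes. Of 7 EGF family ligands, a group drawn up after the values were seen, 2 were lower and 0 higher, beside 1.49 % lower among all genes: amphiregulin (AREG) went from 11.95 to 10.98 and epiregulin (EREG) from 9.41 to 8.48. Both were above 0 on the other arrays, AREG at 1.14 and 0.79 and EREG at 1.15 and 0.63. ANXA1, a phospholipid-binding protein that limits inflammation, changed by -0.97 and was 0.81 and 0.24 there. FGFBP1, a carrier that releases fibroblast growth factors, changed by -0.88, CCN3 by -0.92 with a second probe at -0.10, and CD58, the ligand of CD2, by -0.89. SLPI, an inhibitor of neutrophil elastase, went from 11.87 to 10.51.

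Among regulators ATF6, a sensor of the unfolded protein response, changed by -0.97, although in the list of 26 genes of that response and of heat shock 0 were higher and the chaperone HSPA8 (-0.93) was the 1 lower. FOXA1 (-0.74), GATA6 (-0.76), KLF5 (-0.70), KLF12 (-0.89) and MYCN (-0.67), all transcription factors of epithelium or of development, were lower too. They are in no list and were chosen after their values were seen, and the second probes of KLF5 and MYCN were at -0.18 and 0.09. NFE2L2, which drives the antioxidant response, was at -0.69, while its target GPX2 was at 0.61.

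Part of the falls lay at the top of the brightness range. Among 224 genes with a mean level of 16 or more the median change was -0.172, 24 (10.7 %) were lower and 0 higher. Of 78 cytoplasmic ribosomal proteins 7 were lower (8.97 %) and 0 higher, beside 1.49 % lower among all genes. Their median was -0.25, and -0.10 in the authors' values, -0.06 by the scanner's log ratio and -1.02 with median centring. With the trend on G+C removed 11 were lower. RPL13A (-0.80, other probes -0.06 and -0.05), RPLP0 (-0.73), RPL41 (-0.66), RPS2 (-0.61) and RPS27 (-0.61) were among them, and RPS29 was at -0.60 but at 0.10 in the authors' values. Of 18 housekeeping genes 4 were lower (22.2 %), with PPIA at -0.76, PGK1 at -0.73 (other probes -0.19 to 0.09) and TFRC at -0.67.

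Outside the lists, of 7 genes whose probe lies on the mitochondrial genome 4 were lower and 0 higher, beside 1.49 % lower among all genes. Their median was -0.64, against -0.19 under the decitabine label and 0.28 with both drugs. ND3, ND6 and TMEFF2 were not called, and were at 0.54, 0.43 and 0.04 in the authors' values. Of the lower ones CYTB was at -0.87, but at -0.47 in the authors' values, ND5 at -0.65 and ND4 at -0.64. The fourth, at -0.77, carries the name HNRNPM, but the files place its probe on the mitochondrial genome and the other probes of HNRNPM were at -0.24 and -0.11. The COX1 probe, at -1.35, is placed by the files on chromosome 1, and its levels were 18.37 and 17.02, against control levels of 18.08 and 17.95 on the other arrays. None of 74 nuclear subunits of oxidative phosphorylation passed 1.5-fold in either direction, with a median of -0.03.

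**Figure D5:**
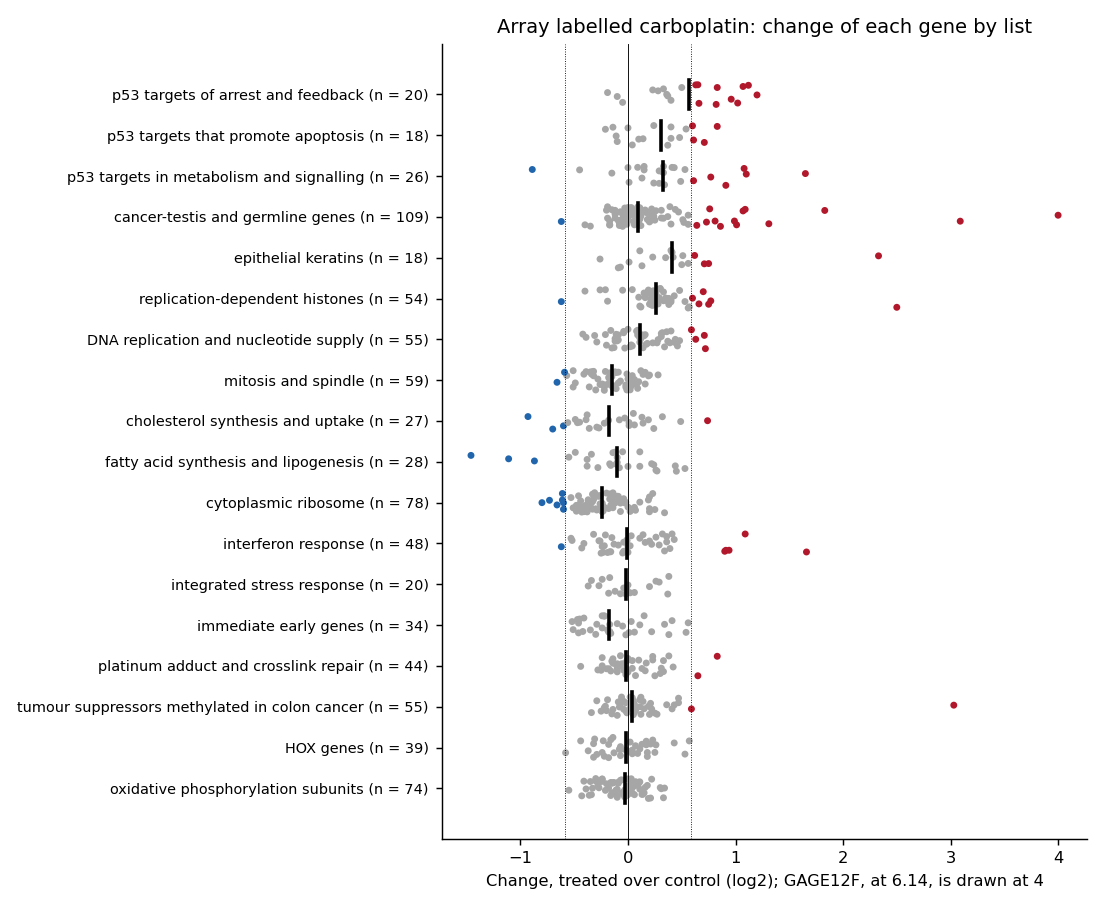
Change of each measured gene (x axis, log2 of treated over control) on the array labelled carboplatin in 18 gene lists (y axis, with the number measured); black bars are medians, dotted lines mark 1.5-fold, and red and blue points lie past it. The p53 lists have medians of 0.56, 0.31 and 0.33, the cytoplasmic ribosome -0.25, and the germline list reaches GAGE12F, drawn at 4 in place of its value of 6.14.

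Of 48 interferon response genes 5 were higher (10.4 % against 2.76 % of all genes) and 1 lower (2.08 % against 1.49 %), with a median of -0.01. IFITM1, a membrane protein that blocks viral entry, went from 10.84 to 12.50. Its control level was 9.86 and 9.98 on the other arrays, so its change of 1.66 would be 2.09 against the mean control channel. IFI27 changed by 1.09 and was -1.13 on the array labelled decitabine, IRF7 by 0.91, ISG15 by 0.90, and BST2 was at least 1.92-fold higher. IFIT2 was at -0.62, with a second probe at -0.04. Of 16 class I presentation genes HLA-C was the only one called, at -0.79, while its other probes ran from -0.57 to 0.36. Of 12 class II genes HLA-DMB was at least 1.55-fold higher. Of 27 chemokines and NF-kB targets TNFAIP2 alone was called, at 0.81, and 0 of 34 immediate early genes were called, with a median of -0.17.

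Members of metabolic and detoxification lists past the threshold are set against 2.76 % higher and 1.49 % lower among all genes. In glycolysis and hypoxia SLC2A3 (1.12) and PFKL (0.75) were higher, and PGK1 and LDHA (-0.70, other probes -0.09 to 0.14) lower, of 31 genes. In fatty acid oxidation ACADS (0.72) was higher and CD36 (-0.62) lower of 21. Of 38 genes of glutathione and NRF2 targets 2 were higher and 1 lower, of 11 metallothioneins MT4 alone was higher (0.65), and of 78 mitochondrial ribosomal proteins MRPL41 alone (0.61). TXNIP, which binds thioredoxin and responds to glucose, changed by 1.39 and lay outside the lists. None of 16 copper and platinum transporters, 13 genes of decitabine uptake and activation or 20 genes of the integrated stress response was called. ATF3 was at -0.02 here and at 5.13 on the array labelled decitabine.

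In the silencing machinery few values were large. None of 17 methyltransferases and methyl-CpG readers and none of 25 Polycomb genes was called. DNMT1 was at 0.33, DNMT3B at 0.44, UHRF1 at 0.31, UHRF2 at -0.53 and TET2 at -0.52. Of 21 genes of HP1 and H3K9 methylation CBX5, which encodes HP1 alpha, was the only one called. It read 11.48 in control and 10.81 in treated cells, a change of -0.67, but its other 2 probes were at 0.14 and 0.30 and the authors' value was -0.32. CBX1 was at -0.23, with other probes at 0.61 and 0.74, and CBX3 at 0.09.

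Genes that the study followed by other assays gave no further call by their brightest probe. RARB, a retinoic acid receptor, was not above background in either channel, at 6.11 and 6.18. PDLIM4 was at -0.21, CDKN2A at 0.47 with a second probe at 0.99, RASSF1 at 0.21 with a second at 0.66, ESR1 at -0.05 and MBD2 at -0.16. Of 55 tumour suppressors methylated in colon cancer 27 were above background in control cells. RUNX3 and IGFBP7 (at least 1.47-fold) were the 2 higher, 3.64 % against 2.76 % of all genes, with 0 lower. None of 39 HOX genes was called. Of 31 Wnt target and stem cell genes ASCL2 (0.88) and CCND1 were higher (6.45 % against 2.76 % of all genes). TNFRSF19 (-0.60, second probe -0.08) was lower (3.23 % against 1.49 %).

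By chromosome, higher genes were most frequent on chromosome 16, with 46 of 799 (5.76 %), chromosome 22, with 22 of 439 (5.01 %), and chromosome 19, with 56 of 1308 (4.28 %). Lower genes were most frequent on chromosome 13, with 12 of 320 (3.75 %), and chromosome 10, with 20 of 692 (2.89 %), and least on chromosome 19, with 3 (0.229 %). The median probe G+C was 50 % on chromosome 19 and 40 % on chromosome 13. With the trend on G+C removed the shares of higher genes on chromosomes 16, 22 and 19 were 4.26, 3.87 and 2.75 %. The shares of lower genes were then 2.19 % on chromosome 13, 1.30 % on chromosome 10 and 0.841 % on chromosome 19, where 11 genes were lower and which was no longer the chromosome with the smallest share. Runs of at least 3 genes of 1 direction within 1 Mb numbered 57 among higher genes, with 226 genes, and 8 among lower genes, with 25. The APOBEC3 run held 4 of the 5 genes measured in its span and the run of S100A4, S100A2 and S100A14 held 3 of 5. Other runs held a small part of their span. The run of SIPA1, RIN1 and CTSF held 3 of 43, with a span median of 0.14. That of PLEKHA4, BAX, RCN3 and CPT1C held 4 of 45, with a median of 0.07. The lower run with HLA-C held 3 of 59, with a median of 0.04. Whether runs were more frequent than the spacing of genes gives was not tested.

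A few rises rest on a control channel that differed from the others. In 10 higher genes and 0 lower genes the control level lay at least 1.5-fold from that of the both-drugs array. CBS, the cystathionine synthase, read 7.15 in control and 8.74 in treated cells, whereas its control was at 10.68 and 11.14 on the other arrays, and its authors' value was -0.78. LY6D had controls of 7.10, 7.12 and 9.44. The others were CDKN1A, H19, IFITM1, KCNN4, LAMC3, LGALS7, LGALS7B and SLC52A1. Against the mean of both control channels CBS turned to -0.40, and the others lay from 0.48 for CDKN1A to 2.09 for IFITM1. That mean still holds this array's own control, so it cannot show whether a rise depends on it. Beside the both-drugs control alone, the treated level was 12.97 against 12.97 for CDKN1A, 8.19 against 8.07 for LAMC3 and 9.77 against 9.44 for LY6D. KCNN4, LGALS7 and LGALS7B were also less than 1.5-fold above that control. H19, IFITM1 and SLC52A1 stayed more than 1.5-fold above it, with IFITM1 at 12.5 against 9.98.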

How the data were processed

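The spot intensities were deposited by the authors as scanner output of Agilent Feature Extraction, version 9.5.3.1 by the file header and 8.5.1.1 by the submitters' processing notes, with positions on GRCh37. The deposited table of the authors holds log2 ratios, loess normalized by them, and served as an alternative. The scanner's log10 ratios of red over green processed signal, also deposited by the authors, were turned to treated over control and to base 2 as another alternative. The direction of the authors' table, treated over control, was taken from a correlation of 0.838 with the values computed here. From the mean signals and the median local background, limma 3.58.1 in R 4.3.3 computed normexp correction (offset 50) and loess within the array. Control spots and 111 outlier spots were left out. Channel levels came from Aquantile scaling. Of 41000 probes 29381 were named through RefSeq accessions or symbols, 29374 were used, and a gene was read by its brightest probe. A channel not well above background gave a lower bound, set by the lowest level that was or by its own level where that was higher. In the second case the bound is the plain ratio and is not conservative. No test was possible with 1 array per treatment. The genes and lists were chosen with earlier results of these data known. Genes were named as the 25 largest changes in each direction whose probes shared a sign, the members of 46 lists past 1.5-fold, the largest among those below background in control cells, genes the study followed by other assays, and runs of neighbours. The normalization was tested on simulated data. Trends on G+C used lowess (statsmodels, fraction 0.3). A few genes are not reported here.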

Additional observations from a re-analysis of the deposited data

Results flagged for a closer look

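Outside the comparison of named genes, 11624 probes had a value but matched no RefSeq gene, and 6755 of them were well above background in a channel. At least 1.5-fold higher in treated cells were 117 of these (1.73 %), and 124 (1.84 %) were lower, with values from -1.10 to 2.10. The probe that the files name GAGE3 was the highest. These probes were not placed in any list.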

How the results depend on the processing

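The counts of higher and lower genes, 514 and 278, moved with the scaling and the threshold. They were 1412 and 1166 with processed signals, 1449 and 1141 by the scanner's log ratio, 1674 and 3554 with median centring and 828 and 513 with an offset of 10. At a threshold of 2-fold they were 118 and 6. The authors' deposited values gave 741 higher and 528 lower, of which 420 and 229 were shared, and the mean over all probes of a gene gave 455 and 152. In the other settings both counts stayed within 1.5 times. Of 178 named genes past 1.5-fold, 153 remained so in the authors' values and 153 with the trend on probe G+C removed, an alternative chosen after seeing the data, as was the mean of 2 control channels, where 165 remained. Of these 178 the sign reversed for TNFRSF12A (-0.01) and COL6A1 (-0.00) with median centring and for RPS29 (0.10) in the authors' values. CBS, which is not among the 178, reversed in the authors' values (-0.78) and with the mean of 2 control channels (-0.40). The cause was not tested. Leaving out an array or using the slide as a block could not be done with 1 array per treatment on 1 slide. No paired analysis was possible because each group holds 1 array and no test was run. Signal over background limits the dim genes: 4598 had no control level well above it.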
